A study of Rattus norvegicus with 28 samples.

Results

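Heat shock proteins and their relatives in the endoplasmic reticulum are chaperones, proteins that fold new polypeptides, refold damaged ones and hold misfolded ones until they are degraded. Cells set their amount by 2 main routes. Misfolded protein in the endoplasmic reticulum activates the factors ATF6 and XBP1, which raise the chaperones of that compartment (the unfolded protein response). Misfolded protein in the cytosol frees heat shock factor 1, which raises the cytosolic heat shock proteins. Neurons make large amounts of membrane and secreted protein and rely on both sets.

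The 7 genes described here were picked by identifier, with earlier results of these data known. They are the endoplasmic reticulum members Hspa5 (ENSRNOG00000018294), Hsp90b1 (ENSRNOG00000026963), Calr (ENSRNOG00000003029) and Pdia4 (ENSRNOG00000006228), and the cytosolic members Hspa8 (ENSRNOG00000034066), Hspb1 (ENSRNOG00000023546) and Hsph1 (ENSRNOG00000000902). All 7 are among the 26405 gene identifiers of the deposited count files, and all 7 passed the filter on low counts, which kept 15413 genes.

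Poly(A) RNA was sequenced from needle punches of the orbitofrontal cortex, a frontal region that weighs rewards and their cues, of Sprague Dawley rats. The rats had self-administered intravenous saline or methamphetamine (meth, a psychostimulant) and were killed at withdrawal day 2 or day 35, the interval over which cue-induced meth craving is known to grow. The 4 groups were day 2 saline, day 2 meth, day 35 saline and day 35 meth, each with 4 libraries, and each library held tissue pooled from 2 rats. No transgene or further treatment is named in the labels, which give neither age nor sex. Library numbers below are those of the sample labels: 13 to 16 for day 2 saline, 1 to 4 for day 2 meth, 9 to 12 for day 35 saline and 5 to 8 for day 35 meth.

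The reads assigned to genes came to between 20.33 M and 48.47 M a library, fewest in day 2 saline. Reads with several alignments, which were not counted to genes, took 9.17 to 10.29% of all reads in the files. Each of lanes 1 to 4 held 1 library of every group, and all libraries of a group carried the same sequencing index, so index and group cannot be told apart. Gene symbols are absent from the count files, so markers of the region and of its cell types were not examined here.

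The promoters were searched for the letters that the 2 routes are known to read. The RefSeq promoter table (build GRCr8; the authors counted on rn4) holds all 7 members, and the window was the 250 bases before each transcription start, on both strands. The endoplasmic reticulum stress element ERSE, spelled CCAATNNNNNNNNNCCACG, where NF-Y and ATF6 are known to bind, was present in Hspa5, Hsp90b1 and Calr and in 22 of all 33469 promoters (0.0657%). Pdia4 had no match to these letters in the window. The related element ERSE-II, ATTGGNCCACG, matched none of the 7 members and 0.0418% of promoters. These are the 4 matches, read 5′ to 3′ along the motif, with the fixed letters in capitals, shown because they occur in 3 of the 4 endoplasmic reticulum members and in none of the 3 cytosolic ones:

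Hspa5, 43 to 25 bases before the start: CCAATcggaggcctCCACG

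Hsp90b1, 176 to 158 bases before the start: CCAATcgaaaggagCCACG

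Hsp90b1, 72 to 54 bases before the start, on the opposite strand: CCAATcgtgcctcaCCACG

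Calr, 232 to 214 bases before the start, on the opposite strand: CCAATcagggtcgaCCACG

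The heat shock element is a run of GAA units in alternating orientation. The 3-unit form GAANNTTCNNGAA, searched on both strands, was present in the cytosolic members Hspa8 and Hsph1 and in 0.663% of promoters. The 2-unit forms are common: GAANNTTC was found in 7.23% of promoters and TTCNNGAA in 7.48%, and each 3-unit match holds 1 of both. Hspb1 had 2 matches to GAANNTTC, 129 to 122 and 109 to 102 bases before its start, and no 3-unit match. A CCAAT box alone, which every ERSE contains, was found in 34% of promoters and in 6 of the 7 members, all but Hspb1. A match describes these letters only and is not evidence of binding.

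Promoters are given in full below, with ERSE or heat shock element letters in capitals. They are those of Hsp90b1, the gene called in these data, and of Hspa5 and Hspa8, whose levels over the 16 libraries correlated most closely. The first lies at chr7:23012294-23012543 on the minus strand, the second at chr3:38452766-38453015 and the third at chr8:50080264-50080513, both on the plus strand, all in GRCr8.

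Hsp90b1: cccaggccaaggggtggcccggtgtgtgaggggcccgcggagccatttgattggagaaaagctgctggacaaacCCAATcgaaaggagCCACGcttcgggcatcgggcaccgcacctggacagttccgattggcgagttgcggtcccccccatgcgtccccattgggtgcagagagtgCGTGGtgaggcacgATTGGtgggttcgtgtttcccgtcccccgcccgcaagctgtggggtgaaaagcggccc

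Hspa5: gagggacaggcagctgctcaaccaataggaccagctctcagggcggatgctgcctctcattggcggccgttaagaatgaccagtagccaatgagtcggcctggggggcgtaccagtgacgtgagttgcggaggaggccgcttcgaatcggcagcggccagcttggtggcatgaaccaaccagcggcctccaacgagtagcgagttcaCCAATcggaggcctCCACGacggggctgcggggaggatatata

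Hspa8: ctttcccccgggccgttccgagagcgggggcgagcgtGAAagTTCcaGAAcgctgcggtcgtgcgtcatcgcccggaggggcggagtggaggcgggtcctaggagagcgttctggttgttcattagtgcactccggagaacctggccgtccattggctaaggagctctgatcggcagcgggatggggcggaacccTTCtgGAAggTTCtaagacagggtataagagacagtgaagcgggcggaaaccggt

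**Figure D1:**
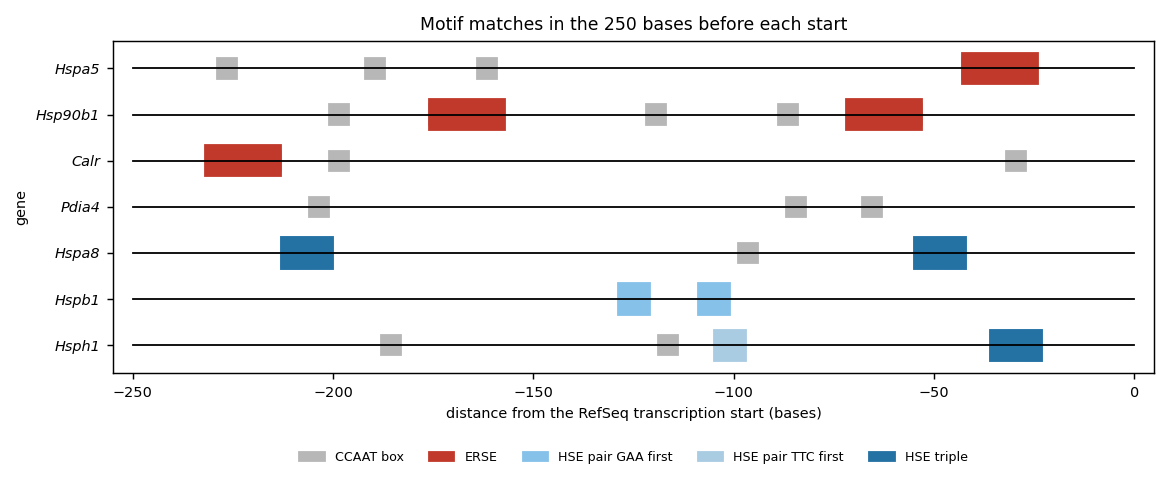
Positions of motif matches in the 250 bases before the RefSeq start of each member (x axis, bases from the start; 1 line per gene); red marks ERSE, dark blue the 3-unit heat shock element, light blue the 2-unit forms outside it and grey a CCAAT box. ERSE boxes appear on Hspa5, Hsp90b1 and Calr, and 3-unit heat shock elements on Hspa8 and Hsph1.

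Hsp90b1 was the 1 member whose level changed by the test used throughout, and it changed over withdrawal in meth rats. Its product, GRP94, is the HSP90 of the endoplasmic reticulum and folds a restricted set of clients, among them integrins and Toll-like receptors. Levels are given as CPM, counts per M reads assigned to genes with library sizes scaled by TMM factors (a correction for differences in RNA composition), and are not corrected for gene length, so they are not compared between genes. At day 2, Hsp90b1 stood at 341, 324, 326 and 321 CPM in saline libraries 13 to 16 and at 303, 309.6, 303 and 299 CPM in meth libraries 1 to 4. At day 35 it stood at 366, 344, 345 and 335 CPM in saline libraries 9 to 12 and at 378, 353, 349 and 338 CPM in meth libraries 5 to 8. The 4 day 2 meth libraries were the lowest of all 16, below every library of the other groups. That order held for Hsp90b1 alone among the 7 members and for 67 of the 15413 genes tested (0.435%).

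In meth rats Hsp90b1 rose from 304 ± 4.27 CPM at day 2 to 355 ± 17.0 CPM at day 35 (SD, n = 4 each), a 1.17-fold difference with a 95% interval of 1.11 to 1.23. The log2 fold change was 0.22 (SE 0.034, edgeR quasi-likelihood adjusted p = 0.0022), and it ranked 27 by p among the 15413 genes. It remained called when each library was left out in turn (log2 fold change 0.19 to 0.25, edgeR adjusted p 0.0012 to 0.012). With 2 libraries per group it was 0.26 in lanes 1 and 2 (edgeR adjusted p = 0.21) and 0.19 in lanes 3 and 4 (edgeR adjusted p = 0.11), so it was positive in both pairs of lanes and passed in neither alone.

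In saline rats Hsp90b1 stood at 328 ± 8.95 CPM at day 2 and 348 ± 13.1 CPM at day 35 (log2 fold change 0.08, SE 0.035, edgeR adjusted p = 0.52). Library 13 of day 2 lay among the day 35 saline libraries. Meth and saline rats differed at day 2 by -0.11 on the log2 scale (SE 0.035, edgeR unadjusted p = 0.0052, adjusted p = 0.24), with no overlap between the groups. Libraries without overlap in that direction are found for 2.54% of all genes. At day 35 the difference was 0.03 (SE 0.034, edgeR adjusted p = 0.97) and the groups overlapped. The meth effect at day 35 minus that at day 2 was 0.14 (SE 0.049, 95% interval 0.04 to 0.24), with an unadjusted edgeR p of 0.011 and an adjusted p of 0.35. The change over withdrawal is therefore not shown to differ between meth and saline rats. In order of their means the groups were day 2 meth, day 2 saline, day 35 saline and day 35 meth, and no neighbours in that order passed the test.

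Hspa5 encodes BiP (GRP78), the HSP70 of the endoplasmic reticulum, which binds entering polypeptides and keeps the stress sensors inactive while it is in excess. At day 2 it stood at 352, 281, 335 and 321 CPM in saline and at 284, 299.9, 278 and 315 CPM in meth libraries. At day 35 it stood at 389, 370.4, 343 and 343 CPM in saline and at 395, 373, 313 and 335 CPM in meth libraries. The spread within groups was wide, the day 35 meth library 7 lay below the highest day 2 meth library, and the day 2 saline library 14 was as low as the meth libraries. The day 35 to day 2 difference was 1.2-fold in meth rats (log2 fold change 0.27, SE 0.077, edgeR adjusted p = 0.098) and 1.12-fold in saline rats (0.16, SE 0.077, edgeR adjusted p = 0.58), so neither passed. Between meth and saline it was -0.13 at day 2 (95% interval -0.30 to 0.03) and -0.03 at day 35 (-0.19 to 0.14).

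Pdia4 encodes ERp72, a disulfide isomerase that joins BiP and GRP94 in large folding complexes. It stood at 40.4, 39.8, 45.7 and 42.3 CPM in day 2 saline and at 41.0, 36.8, 37.0 and 40.6 CPM in day 2 meth libraries. At day 35 it stood at 48.5, 44.5, 45.9 and 40.6 CPM in saline and at 48.9, 45.0, 43.7 and 43.4 CPM in meth libraries. Every day 35 meth library lay above every day 2 meth library, a difference of 1.17-fold (95% interval 1.07 to 1.27) that just missed the threshold (log2 fold change 0.22, SE 0.058, edgeR adjusted p = 0.055). It passed in 4 of the 16 fits that left out 1 library, with an adjusted p between 0.038 and 0.18. In saline rats the difference was 1.07-fold (edgeR adjusted p = 0.68) with overlap.

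Calr encodes calreticulin, a lectin chaperone that binds glycoproteins and stores calcium. It varied little at day 2, from 351 to 369 CPM in saline and from 342 to 357 CPM in meth libraries. At day 35 it stood at 390.4, 383, 379 and 368 CPM in saline and at 404, 389.7, 366 and 348 CPM in meth libraries. Libraries 5 and 6 of day 35 meth were above all day 2 libraries, and libraries 7 and 8 were within the day 2 range. The day 35 to day 2 difference was 1.08-fold in meth rats (edgeR adjusted p = 0.13) and 1.06-fold in saline rats (edgeR adjusted p = 0.55). Meth and saline rats differed by -0.04 at day 2 (95% interval -0.12 to 0.04) and by -0.01 at day 35 (-0.09 to 0.07), on the log2 scale.

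Among the cytosolic members, Hspa8 encodes HSC70, the constitutive HSP70, which in neurons also strips clathrin from synaptic vesicles. Rodent genomes hold processed copies of Hspa8, and since reads with several alignments were not counted its level is uncertain and may be understated. It stood at 640.1, 600.3, 609 and 608 CPM in day 2 saline and at 569, 602, 563 and 578 CPM in day 2 meth libraries. At day 35 it stood at 673, 660.4, 621 and 627 CPM in saline and at 670.1, 665, 601 and 614 CPM in meth libraries. At day 2 meth libraries 1, 3 and 4 lay below all saline libraries and library 2 among them (log2 fold change -0.09, SE 0.038, edgeR unadjusted p = 0.034, adjusted p = 0.43). In meth rats the day 35 level was 1.10-fold that of day 2 (log2 fold change 0.14, SE 0.038, edgeR adjusted p = 0.065), and with sequencing lane as a block it passed (edgeR adjusted p = 0.032). In saline rats the difference was 1.05-fold (edgeR adjusted p = 0.63).

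Hsph1 encodes HSP105, a member of the HSP110 family that acts as a nucleotide exchange factor for HSP70 and is abundant in brain. At day 2 its libraries differed by little, from 368 to 378 CPM in saline and from 361 to 369.7 CPM in meth. At day 35 they stood at 391, 409, 391 and 375 CPM in saline and at 413, 423, 378 and 375 CPM in meth. Every day 35 meth library lay above every day 2 meth library, by 1.09-fold on average (log2 fold change 0.12, SE 0.036, edgeR adjusted p = 0.091), and the saline groups overlapped (1.05-fold, edgeR adjusted p = 0.62). Its coefficient of variation (SD over mean) was 1.07% and 1.12% in the day 2 saline and meth groups against 3.53% and 6.14% at day 35. In 5 of the 7 members both day 35 groups had a larger coefficient than both day 2 groups, which held for 10.8% of all genes tested; Hspa5 and Pdia4 were the exceptions. The day 2 saline libraries were the shallowest, and the part of depth in this spread was not tested.

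Hspb1 encodes HSP27, a small heat shock protein that holds unfolded clients and that glia and vessels make under stress. It was scarce here, with 54 to 265 counts per library. It stood at 3.09, 2.46, 2.29 and 2.37 CPM in day 2 saline, and at 2.34, 3.44, 2.12 and 3.07 CPM in day 2 meth libraries. At day 35 it stood at 5.50, 3.91, 2.48 and 3.01 CPM in saline and at 3.37, 4.84, 1.86 and 3.25 CPM in meth libraries. All 4 groups overlapped, and the lowest library of all, number 7, was a day 35 meth library. No comparison passed: day 35 against day 2 gave 1.49-fold in saline (95% interval 0.96 to 2.3, edgeR adjusted p = 0.62) and 1.2-fold in meth rats (0.8 to 1.81, edgeR adjusted p = 0.69), intervals that leave room for changes well beyond those of the other members.

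**Figure D2:**
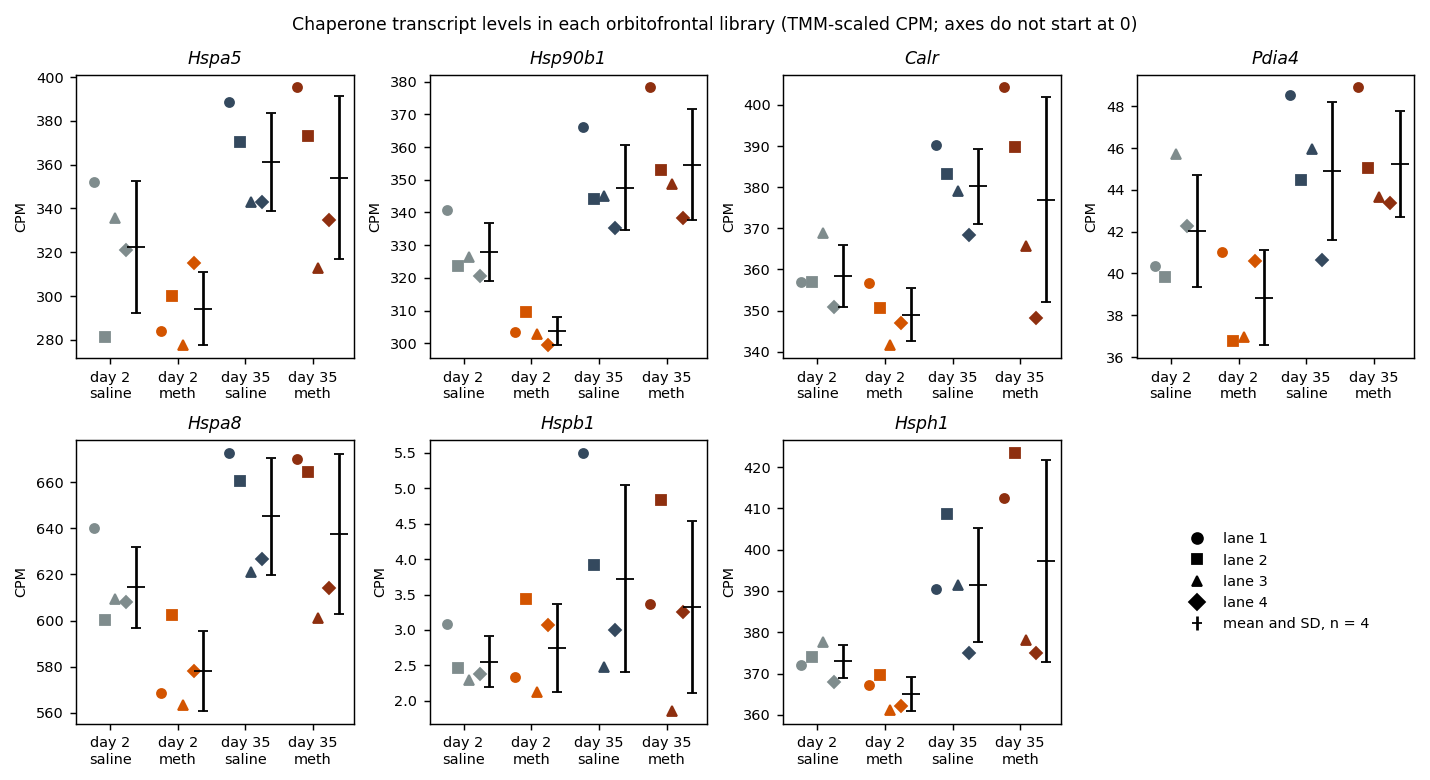
TMM-scaled CPM (y axis, not starting at 0) of each member in every library of the 4 groups (x axis), with symbols for the lane and a bar for mean and SD (n = 4). For Hsp90b1 the 4 day 2 meth libraries, 299 to 309.6 CPM, lie below the other 12.

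Over the set, the largest median difference was that between days in meth rats. There all 7 had a positive log2 fold change from day 2 to day 35, with a median of 0.22 against 0.00 over all genes tested. The median without Hspb1 was 0.18. All 7 values were larger in lanes 1 and 2 than in lanes 3 and 4, in fits added after the values were seen. In that order Hspa5 gave 0.40 and 0.13, Hsp90b1 0.26 and 0.19, Calr 0.17 and 0.05 and Pdia4 0.28 and 0.17. Hspa8 gave 0.19 and 0.09, Hsph1 0.18 and 0.06 and Hspb1 0.49 and -0.04. The cause of this gap between lanes was not tested. Hsp90b1 was the 1 member called, where 0.448% of all genes were called higher. An unadjusted edgeR p under 0.05 was reached by 6 of 7 members, all but Hspb1, against 6.58% of all genes in that direction. The day 35 meth range lay wholly above that of day 2 for Hsp90b1, Pdia4 and Hsph1, against 5% of all genes. DESeq2, another count test, called 5 members higher (Hspa5, Hsp90b1, Pdia4, Hspa8 and Hsph1), where it called 1.5% of the genes it adjusted. With lane as a block edgeR called Hsp90b1 and Hspa8, against 0.526% of all genes. In edgeR without the block the count was 3 when day 35 meth library 8 was left out, where Calr and Hsph1 passed as well. It was 2 without day 35 meth library 7, where Hspa8 was added. It was also 2 without day 2 meth library 1, day 35 saline libraries 9 or 12, or day 2 saline library 15, where Pdia4 was added. For the other 10 libraries it was 1. Without library 1, 7 or 8, edgeR called fewer of all genes, in either direction, than with every library kept. Without library 9 it called more. With 8 libraries, lanes 1 and 2 or lanes 3 and 4, the count of members was 0.

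In saline rats all 7 log2 fold changes were again positive, with a median of 0.09 against 0.00 over all genes, and edgeR, DESeq2 and limma-voom called 0 of them. edgeR called 0% of all genes in this comparison. Hsp90b1 and Calr reached an unadjusted edgeR p under 0.05, against 4.2% of all genes in that direction. Averaged over both drug groups, a comparison added after the values were seen, Hsp90b1 was higher at day 35 by 1.11-fold (log2 fold change 0.15, SE 0.024, edgeR adjusted p = 0.0056), where 0.35% of all genes were called higher. The same 6 members as in meth rats had an unadjusted edgeR p under 0.05 there, against 7.03% of all genes, with adjusted p between 0.065 and 0.074 for the 5 that missed the threshold. DESeq2 called those 6. With lane as a block edgeR called 4 (Hsp90b1, Calr, Hspa8 and Hsph1). Both settings also called more of all genes than edgeR without the block, which called 163 of 15413 in either direction. Without the block, edgeR called 3 members when day 35 meth library 7 or 8 was left out, where fewer of all genes were called. It called 2 when day 35 saline library 11 or 12 or day 2 saline library 13 or 15 was left out. For the other 10 libraries it called 1, and in either pair of lanes 0.

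Between meth and saline rats no member was called on either day by edgeR, DESeq2 or limma-voom. At day 2 the log2 fold change was negative for 6 of 7 members, all but Hspb1 (0.12, SE 0.31), with a median of -0.09 against 0.00 over all genes. edgeR called 0.11% of all genes at day 2. Hsp90b1 and Hspa8 reached an unadjusted edgeR p under 0.05, against 4.51% of all genes in that direction. The day 2 meth group had the lowest of the 4 group means for 6 of 7 members and for 27% of all genes. At day 35, where edgeR called 0% of genes, 0 members reached an unadjusted p under 0.05, against 5.85% of genes. The log2 fold change was negative for 4 members and positive for 3, with a median of -0.01. Leaving out Hspb1, the 95% intervals at day 35 covered at most -0.19 to 0.14 on the log2 scale. The meth effect differed between days for 0 members by edgeR, DESeq2 or limma-voom, where edgeR called 0.136% of all genes. Hsp90b1 was the 1 member with an unadjusted edgeR p under 0.05, against 3.67% of genes in that direction. The comparisons share libraries, so the low day 2 meth levels enter each one that uses that group.

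**Figure D3:**
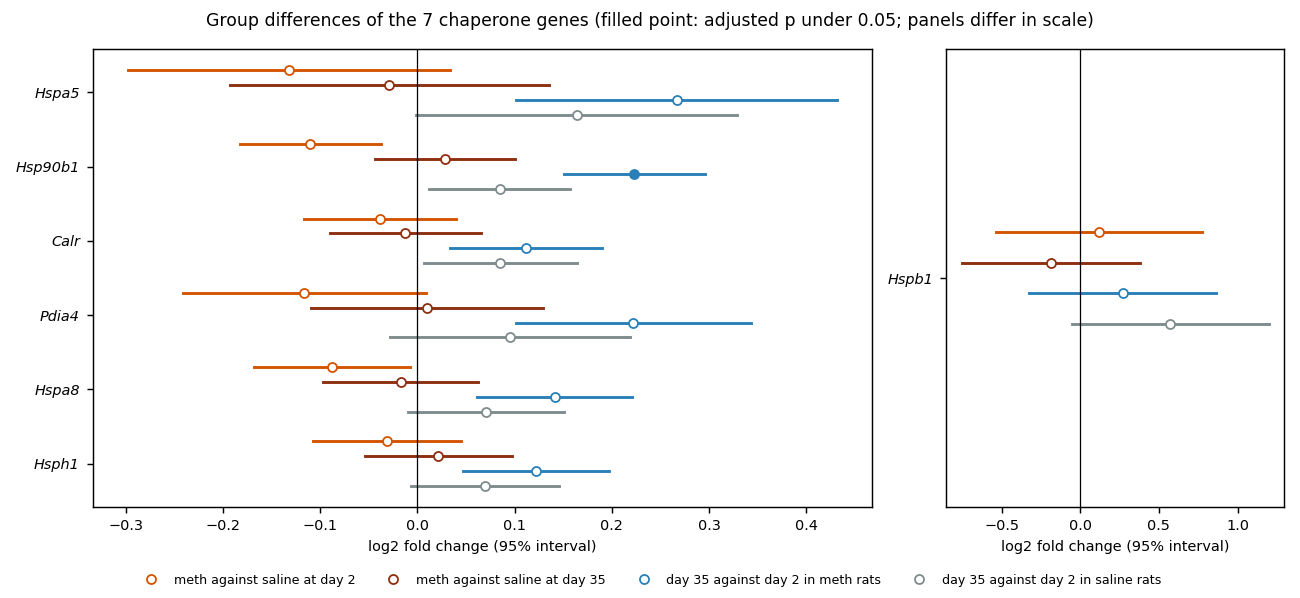
Log2 fold changes (x axis, points) with 95% intervals (lines) of the 7 members (y axis) in 4 comparisons; filled points have an edgeR adjusted p under 0.05, and Hspb1 has its own scale. The 1 filled point is Hsp90b1 in meth rats, day 35 against day 2, at 0.22.

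On average, summed levels were lowest in day 2 meth, with day 2 saline next and the 2 day 35 groups highest. The 4 endoplasmic reticulum members together took 959 to 1002 CPM in day 2 meth, 1002 to 1090.0 CPM in day 2 saline, 1087 to 1193 CPM in day 35 saline and 1065 to 1227 CPM in day 35 meth libraries. The 3 cytosolic members took 926 to 975, 977 to 1015, 1005 to 1073 and 981 to 1093 CPM in the same order of groups. Most of that sum was Hspa8, at 563 to 673 CPM a library, and Hspb1 added 1.86 to 5.50 CPM. The sums weigh each member by its CPM, which is not corrected for gene length. The ranges of both sums overlapped between the 2 day 35 groups, and each day 35 group also overlapped day 2 saline. In the endoplasmic reticulum sum, day 35 meth libraries 7 and 8 stood at 1071 and 1065 CPM. They lay below day 2 saline libraries 13 and 15, at 1090.0 and 1076 CPM. In these tissue pools, fewer cells of a type and less RNA per cell cannot be told apart. Day 2 saline library 14 lay within the day 2 meth range of the endoplasmic reticulum sum. Day 2 saline had the fewest reads of the 4 groups, and the part of depth in these sums was not tested.

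The members varied together from library to library. Across the 16 libraries, log2 CPM of the 15 pairs among the 6 members other than Hspb1 correlated with Pearson's r between 0.71 and 0.93 (median 0.83). Spearman's rho lay between 0.67 and 0.96. The highest of these pairs' two-sided permutation p-values were 0.0028 and 0.0056, or 0.0034 and 0.0069 adjusted over all 21 pairs. Libraries were permuted across all groups, so differences between groups enter these p-values. Without the 2 libraries farthest from the median of the first gene, r lay between 0.66 and 0.96. As deviations from the group means, which removes the differences between groups, r was 0.31 to 0.86 (median 0.66). Over the 16 libraries the 6 pairs with Hspb1 had a lower median r of 0.56. They ran from 0.37 with Pdia4 (permutation p = 0.16, rho 0.27, permutation p = 0.31) to 0.75 with Hspa8. As deviations from the group means these pairs ran from 0.20 with Pdia4 to 0.86 with Hspa8 (median 0.49), with Hspa5 at 0.71. The libraries share lanes, depth and a scaling factor, which can add to any such correlation.

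By r over the 16 libraries, the closest pairs crossed the compartments. As deviations from the group means, the cytosolic pair Hspa8 and Hspb1 was as close as any (r = 0.86). Hspa8, in the cytosol, was the gene most like Hspa5 of all 15413 tested (r = 0.93, rho = 0.96, permutation p = 1e-05 for both, the smallest that 100000 resamples can give). Hspa5 stood second in the list of Hspa8. Without 2 libraries r was 0.96, and as deviations from the group means it was 0.86. Hsph1 was likewise the gene most like Calr (r = 0.90, rho = 0.89, permutation p = 1e-05 and 2e-05), with r of 0.91 without 2 libraries and 0.82 as deviations. Among endoplasmic reticulum pairs, Hsp90b1 and Calr correlated by r = 0.85 (rho = 0.86, permutation p = 4e-05 and 7e-05), 0.78 without 2 libraries and 0.75 as deviations. Their promoters, like that of Hspa5, hold the ERSE letters shown above. Those letters were not found in the same window of Hspa8 and Hsph1. Hsp90b1 correlated with Hspa8 by r = 0.89 (0.76 as deviations), and the part of these letters in the correlations was not tested.

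**Figure D4:**
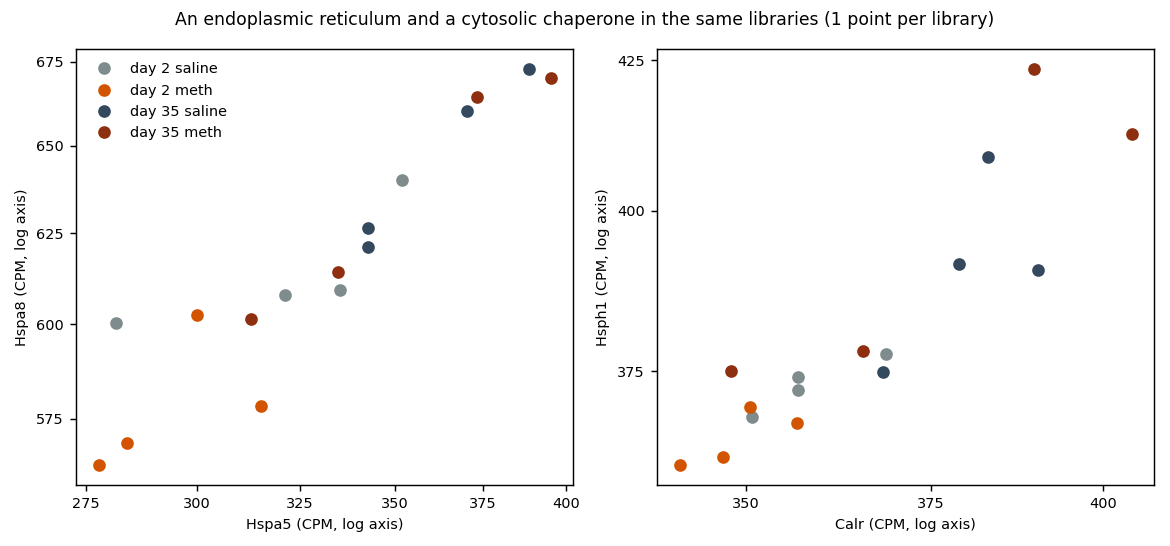
Each point is 1 library of the group given by its colour; axes are TMM-scaled CPM on log scales, Hspa8 against Hspa5 on the left (r = 0.93) and Hsph1 against Calr on the right (r = 0.90). Low day 2 meth libraries and high day 35 libraries lie at opposite ends in both.

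Few other genes followed this profile. The mean z-score of the 4 endoplasmic reticulum members correlated above 0.8 with 36 of the 15406 genes that are no members (0.234%), and that of the 3 cytosolic members with 77 (0.5%), where the median gene stood at -0.02 for both. The gene most like the first was ENSRNOG00000036676 (r = 0.92, and 0.72 as deviations from the group means), and that most like the second was ENSRNOG00000016167 (r = 0.95 and 0.90). Both values describe likeness over these 16 libraries. Of the cytosolic members, Hspa8 and Hsph1 correlated with the endoplasmic reticulum mean by 0.90 and 0.85, and Hspb1 by 0.56.

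Within day 35 the high libraries sat on lanes 1 and 2. This split of the lanes was not planned, and the members vary together, so counts of members are not independent. In day 35 meth, libraries 5 and 6 lay above libraries 7 and 8 for all 7 members, by a median of 0.15 on the log2 scale, an order found for 18.4% of all genes. In day 35 saline, libraries 9 and 10 lay above 11 and 12 for 4 of 7 members (17% of all genes), with a median of 0.10 for the 7. At day 2 this order held for 3 of 7 members in meth (14.8% of all genes) and 1 of 7 in saline libraries (15.4%), with medians of 0.03 and 0.00. For Hsph1 in day 35 meth, the pairs averaged 418 and 377 CPM, a gap larger than the difference between the 2 days in either drug group. The design text names 2 independent runs of rats, no label ties a library to a run, and the part of lane or run in these levels was not tested.

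**Figure D5:**
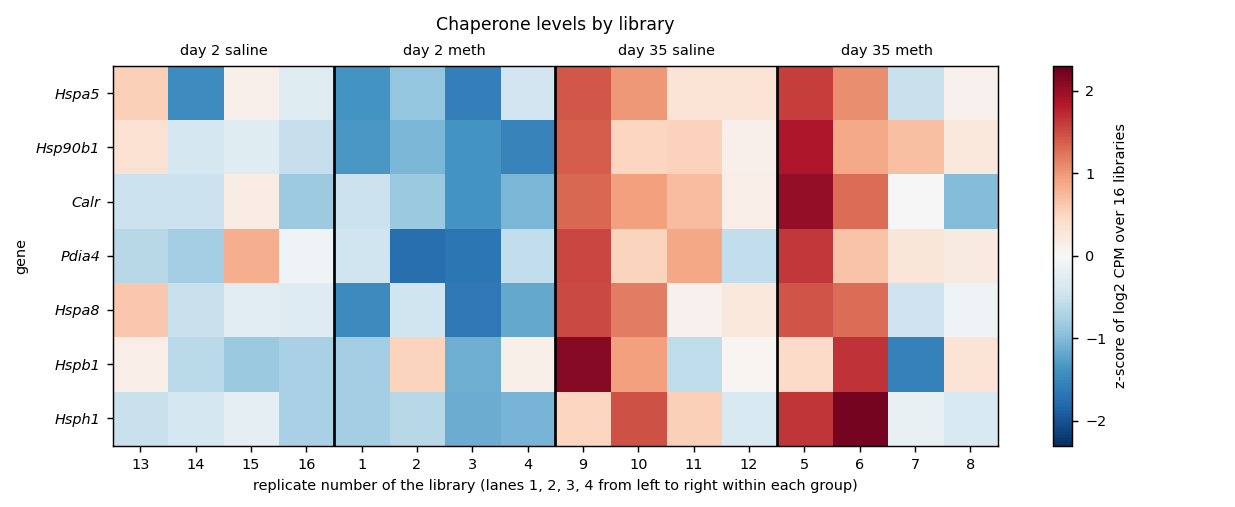
Colour gives the z-score of log2 CPM over the 16 libraries for each member (rows) in each library (columns, grouped, lanes 1 to 4 from left to right); red is above and blue below the gene's own mean. Libraries 5, 6, 9 and 10 are above the mean for all 7 members, and libraries 1, 3, 14 and 16 for none.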

How the data were processed

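The deposited values are raw HTSeq read counts per Ensembl gene for 16 orbitofrontal libraries. TopHat, HTSeq, limma and build rn4 are named per the submitters' processing notes; versions, annotation release and strand setting are not given there. Libraries are labelled short or long withdrawal, and the days come from the series' design text. The 12 central amygdala samples were not analysed here. The 5 HTSeq summary rows (31.13 to 32.61% of reads) were left out.

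The members and lists were chosen with earlier results of these data known. Their names come with the choice of members: the RefSeq gene table matched 0 of the 26405 identifiers, so the pathway and cell type lists, written by symbol, could not be run. The rule for genes of like pattern named 2 for each set, and only the first is printed because they have no symbol.

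Counts were filtered with filterByExpr, scaled by TMM (factors 0.985 to 1.018) and fitted with edgeR 4.0.16 in R 4.3.3 (glmQLFit, robust, 4 group means, all 16 libraries). A gene was called where p, adjusted by Benjamini-Hochberg over the 15413 genes, was under 0.05. SE is the log2 fold change over the root of F. The pipeline was tested on simulated data. Within-group pairs of libraries differed by at least 5.19 times the chi-square of sampling noise, so all were kept. P-values measure the spread between pools of rats. Likeness used log2 CPM with a prior count of 2. Alternatives were median-ratio size factors, other filters, lane as a block, limma-voom (limma 3.58.1), DESeq2 1.42.0, only the groups compared, each library left out and, added after seeing the data, fits within pairs of lanes. Lanes pair the libraries by a label, but deviations of same-lane libraries correlated by 0.01 on average (-0.17 to 0.16 over 24 pairs).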

Additional observations from a re-analysis of the deposited data

How the results depend on the processing

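Hsp90b1 kept its direction and its call between the days in meth rats with median-ratio size factors, other filters, DESeq2, limma-voom, the replicate block, only the groups compared and each library left out, and missed the threshold within pairs of lanes. The number of members called in that comparison was 1 as reported, 5 with DESeq2, 2 with no filter, with lane as a replicate block and with only the groups compared, 0 in either pair of lanes, and 1 to 3 with 1 library left out. Over both drug groups it was 1 as reported, 6 with DESeq2, 4 with the replicate block, 2 with no filter, 0 in either pair of lanes, and 1 to 3 with 1 library left out. Calls over all genes moved as well. In meth rats 282 of 15413 genes were called as reported, in either direction. More were called with DESeq2, the block and only the groups compared, and fewer with no filter. Over both drug groups 163 were called as reported, more with DESeq2 and the block and about as many with no filter. Whether the member counts rose beyond these shifts was not tested. The replicate block changed no call in the other 4 comparisons. The cause of these shifts was not tested, nor was the part of the smaller number of libraries in a pair of lanes. No difference that reversed was called. Among these reversals the widest shift was that of Hspb1 between days in meth rats, from 0.27 as reported to the value in lanes 3 and 4 given here. Between meth and saline at day 35, lanes 1 and 2 gave log2 fold changes of 0.019 for Hspa5, 0.038 for Calr and 0.0023 for Hspa8, and lanes 3 and 4 gave -0.027 for Hsph1. Lanes 3 and 4 also gave -0.0037 for Calr when the day 2 meth effect was taken from that of day 35, -0.039 for Hspb1 between days in meth rats and -0.022 for Pdia4 between days in saline rats. With each library left out in turn, the day 35 meth against saline values ran from -0.086 to 0.027 for Hspa5, -0.0038 to 0.055 for Hsp90b1, -0.048 to 0.024 for Calr, -0.034 to 0.052 for Pdia4, -0.042 to 0.010 for Hspa8, -0.42 to 0.085 for Hspb1 and -0.0093 to 0.049 for Hsph1. At day 2 Hspb1 ran from -0.017 to 0.23, and Calr in that subtraction from -0.0093 to 0.065. Depth limits Hspb1 most, with 54 to 265 counts a library.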
